A study of Mus musculus with 2 samples.

Results

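The genes of the insulin-like growth factor (IGF) system were examined in RNA from the vagina of WT mice and of mice lacking fibulin-5 (*Fbln5-/-*), a secreted protein needed for the assembly of elastic fibers. The system was taken as 10 genes. These are the ligands *Igf1* and *Igf2*, the receptors *Igf1r* and *Igf2r*, and the binding proteins *Igfbp2*, *Igfbp3*, *Igfbp4*, *Igfbp5*, *Igfbp6* and *Igfbp7*. Every probe set annotated to 1 of these genes alone was used, which gave 28 of the 45101 probe sets on the array. A further probe set, annotated to *Igf2r* together with *Airn*, was left out (signals of 30.1 in WT and 40.8 in *Fbln5-/-*).

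The comparison asks how expression in the vaginal wall differs when fibulin-5 is absent and the hormonal state is held equal. All animals were females on the C57/Bl6 background, 6 months of age per the labels, that were ovariectomized and then given estradiol at 50 µg/kg/d for 3 d. The paper states that most *Fbln5-/-* females develop prolapse of the pelvic organs before this age. The labels do not say whether the animals used here had it, so absence of fibulin-5 and prolapse cannot be told apart. Ovariectomy is placed at 11 d in the sample labels and at 2 weeks in the series text. The methods give 2 animals in each group, but 1 array per genotype was analysed here, and the sources do not say whether RNA was pooled. There was thus no replicate: no difference below has a p-value or an error between animals, and every ratio compares 1 *Fbln5-/-* array with 1 WT array. The whole organ was used, so a lower signal can reflect fewer cells of a type or less RNA per cell, and these cannot be told apart.

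IGF1 and IGF2 are small secreted growth factors that bind the IGF1 receptor, a tyrosine kinase that signals through IRS proteins, PI3 kinase and AKT. IGF2R binds IGF2 at the cell surface and carries it to lysosomes, where it is degraded. The secreted binding proteins hold IGFs in extracellular fluid and matrix, and proteases that cleave them release the ligand. In the female reproductive tract *Igf1* is known as a gene of stromal cells that is induced by estradiol.

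Values are MAS5 signals, scaled so that both arrays have the same median, and ratios are *Fbln5-/-* over WT on the log2 scale, where −1 is a 2-fold decrease. A probe set was kept where its scaled signal reached 100 on at least 1 array, and each gene was represented by its brightest probe set. All 10 genes were measured, at 100 or more on both arrays. At its brightest probe set, *Igfbp2* was at least 2-fold lower on the *Fbln5-/-* array (4.77% of all 11934 measured genes were), no member was at least 2-fold higher (7.21% of all genes were), and the other 9 were within 2-fold. At a lower threshold of 1.5-fold, *Igf1* and *Igfbp2* were lower (10.4% of all genes) and *Igf1r* and *Igfbp3* were higher (20.0%). The members' median log2 ratio was 0.31, beside 0.16 over all measured genes. With the mean over all kept probe sets of each gene in place of the brightest, the members' median was −0.20 and that of all genes 0.09. Over single probe sets it was −0.01 for the members and 0.10 for all. Counted from the all-gene median at the brightest probe sets, 6 members lay above and 4 below. When the arrays were instead scaled to a median ratio of 1 over the probe sets that reached 100 on both, every log2 ratio and the all-gene median shifted by −0.11, and the 2-fold calls over all genes went from 861 higher and 569 lower to 679 and 698. Of the 28 probe sets, 24 were kept. Among these, 6 were at least 2-fold lower (8.52% of all kept probe sets) and none was at least 2-fold higher (6.49%). The 6 belonged to *Igf1*, *Igf2r*, *Igfbp2* and *Igfbp4*.

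**Figure D1:**
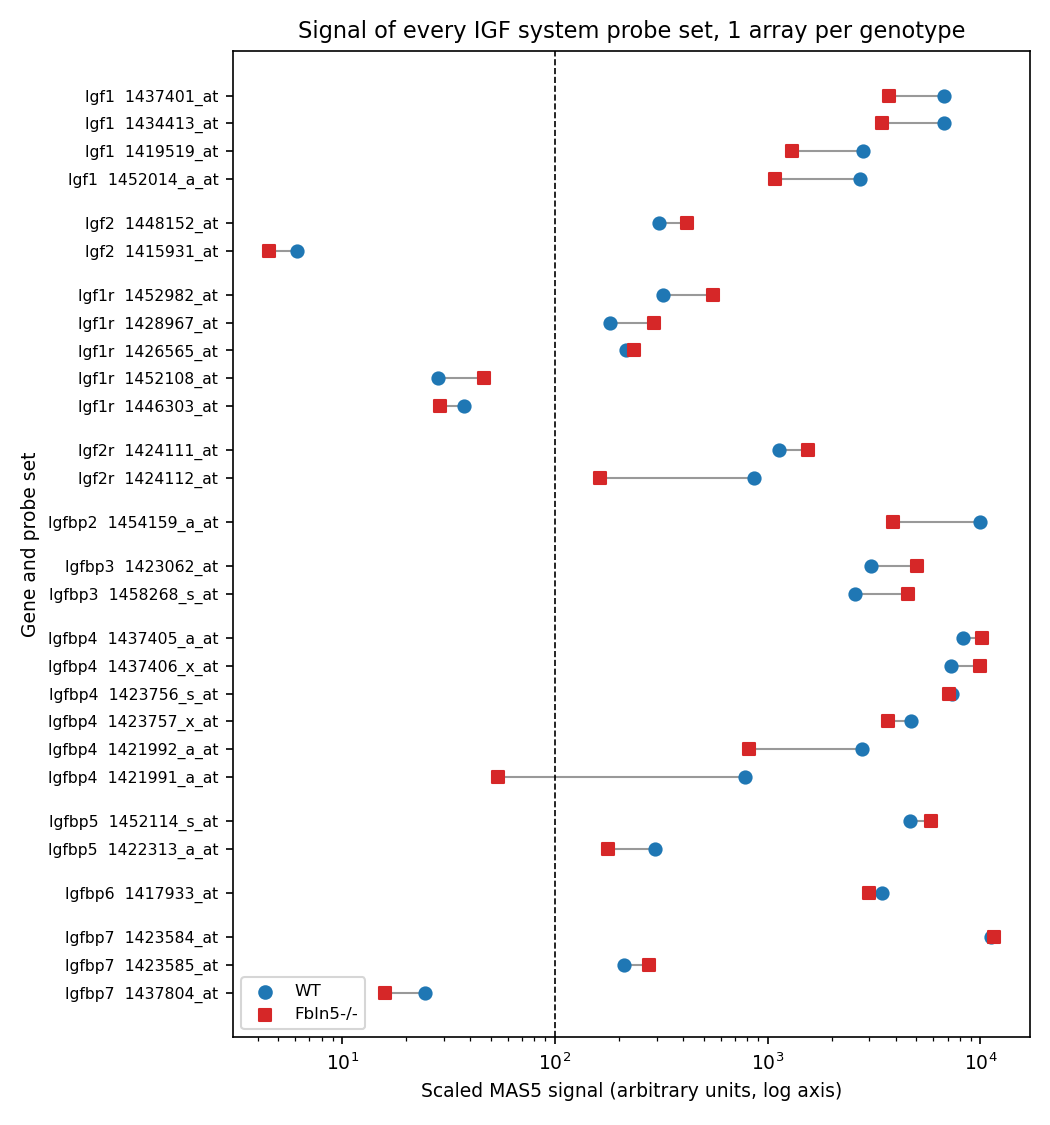
Scaled MAS5 signal (log axis, arbitrary units) of all 28 IGF system probe sets in WT (circles) and *Fbln5-/-* (squares), with 1 array per genotype and a dashed line at 100. All 4 *Igf1* probe sets and the *Igfbp2* probe set lie to the left on the *Fbln5-/-* array, *Igfbp3* lies to the right, and the probe sets of *Igfbp4* and *Igf2r* point both ways.

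*Igf1*, the ligand with the broadest role in tissue growth, was lower on the *Fbln5-/-* array at all 4 of its probe sets. The signal at 1437401_at was 6707 in WT and 3712 in *Fbln5-/-*, a log2 ratio of −0.85. At 1434413_at it was 6715 and 3428 (−0.97). At 1419519_at it was 2791 and 1301 (−1.10), and at 1452014_a_at it was 2703 and 1086 (−1.32). The *Fbln5-/-* signal was thus between 40.2% and 55.3% of the WT signal at every probe set, with a mean log2 ratio of −1.06 and an SD of 0.20 over the 4. That SD describes probe sets of 1 pair of arrays and not animals. Over the 4114 genes with several probe sets that reached 100 on both arrays, the pooled SD within a gene was 0.52. Because the brightest probe set gave the smallest difference, *Igf1* fell short of the 2-fold limit as a gene, while 2 of its 4 probe sets passed it. Under each of the other 4 scalings tried, 3 of the 4 passed it.

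How often probe sets of 1 gene were this low together was counted over the 468 genes with at least 4 probe sets that reached 100 on both arrays. In 349 of them the probe sets pointed both ways. All lay below 0 in 42 (8.97%) and above 0 in 77. In 2 of the 468, *Igf1* and *Bet1l*, every probe set was at or below a log2 ratio of −0.85. This count was made after the *Igf1* values were seen and describes these arrays.

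**Figure D2:**
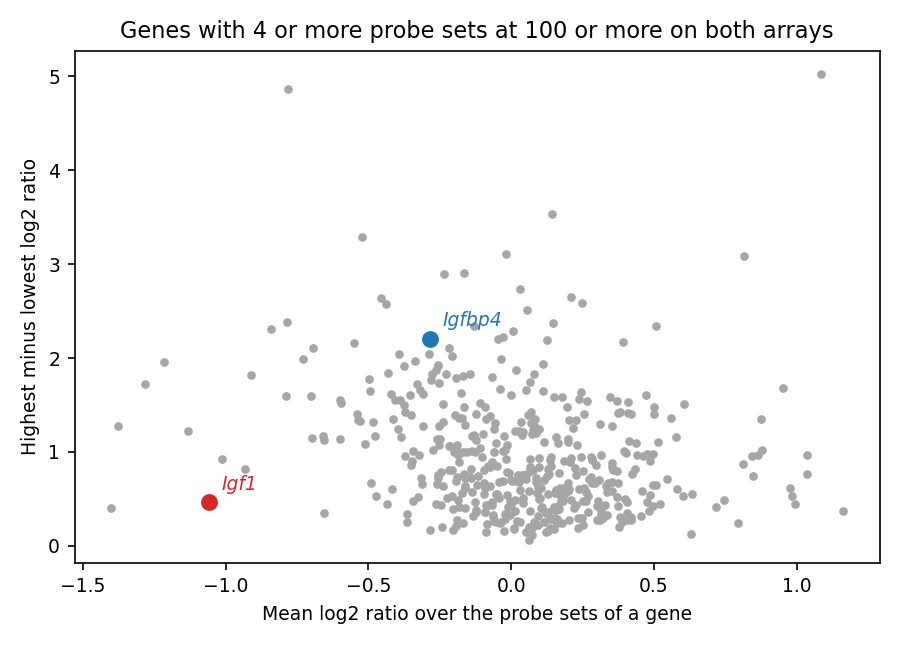
Mean log2 ratio (*Fbln5-/-* over WT) of the probe sets of a gene (horizontal axis) against the gap between the highest and the lowest of them (vertical axis), for the 468 genes with at least 4 probe sets that reached 100 on both arrays, 1 point per gene. *Igf1* (mean −1.06, gap 0.46) lies at the low end with a narrow gap, and *Igfbp4* (mean −0.28 over the 5 of its probe sets that qualify, gap 2.21) has a wide one.

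*Igf2*, the ligand best known for growth before birth, gave a far smaller and opposite difference. Its kept probe set, 1448152_at, had signals of 308.2 (WT) and 418.9 (*Fbln5-/-*), a log2 ratio of 0.44. At its other probe set both arrays were under 100 (6.13 and 4.52), so no ratio is given. The ligands therefore lay on opposite sides of the all-gene median, *Igf1* at −1.01 and *Igf2* at 0.28 relative to it.

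Both receptors were higher on the *Fbln5-/-* array at their brightest probe set. *Igf1r*, which transmits the signal of both ligands, had signals of 320.9 and 553.4 at 1452982_at (log2 ratio 0.79). At 1428967_at the signals were 180.4 and 293.4 (0.70), and at 1426565_at they were 216.7 and 233.8 (0.11). All 3 kept probe sets thus pointed up, none reached 2-fold, and the 2 remaining *Igf1r* probe sets were under 100 on both arrays (28.2 and 46.3, and 37.3 and 28.8). *Igf2r*, the clearance receptor for IGF2, was split. It had signals of 1124 and 1553 at 1424111_at (0.47) but 860.1 and 161.9 at 1424112_at, 5.31-fold lower. A gap this wide between probe sets of a gene was seen in 0.778% of the 4114 genes with several. The probe sets of *Igf2r* thus did not share a direction.

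*Igfbp2*, a binding protein secreted by many epithelia, showed the largest difference among the brightest probe sets. Its single probe set, 1454159_a_at, had WT and *Fbln5-/-* signals of 9921 and 3877, 2.56-fold lower (log2 ratio −1.36). A ratio this low or lower was found in 2.56% of all measured genes. With 1 probe set, the value could not be compared with a second measurement of the gene. *Igfbp5*, which holds IGFs in the extracellular matrix and lies next to *Igfbp2* on chromosome 1 with no protein-coding gene between them in the GRCm38.p6 annotation, had a log2 ratio of 0.33 at 1452114_s_at (4672 and 5866). Its other probe set, 1422313_a_at, was lower (295.8 and 178.2, a log2 ratio of −0.73). The neighbors thus lay on opposite sides of 0 at their brightest probe sets, and the probe sets of *Igfbp5* did not share a direction.

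*Igfbp3*, the main carrier of IGFs in blood and also a product of tissue fibroblasts and endothelium, was higher at both of its probe sets. At 1423062_at the signal went from 3053 in WT to 5039 in *Fbln5-/-* (log2 ratio 0.72), and at 1458268_s_at it was 2563 and 4570 (0.83). The increases were 1.65-fold and 1.78-fold, a gap of 0.11 on the log2 scale. *Igfbp1*, its neighbor on chromosome 11 and a liver and decidual product, was under 100 on both arrays.

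**Figure D3:**
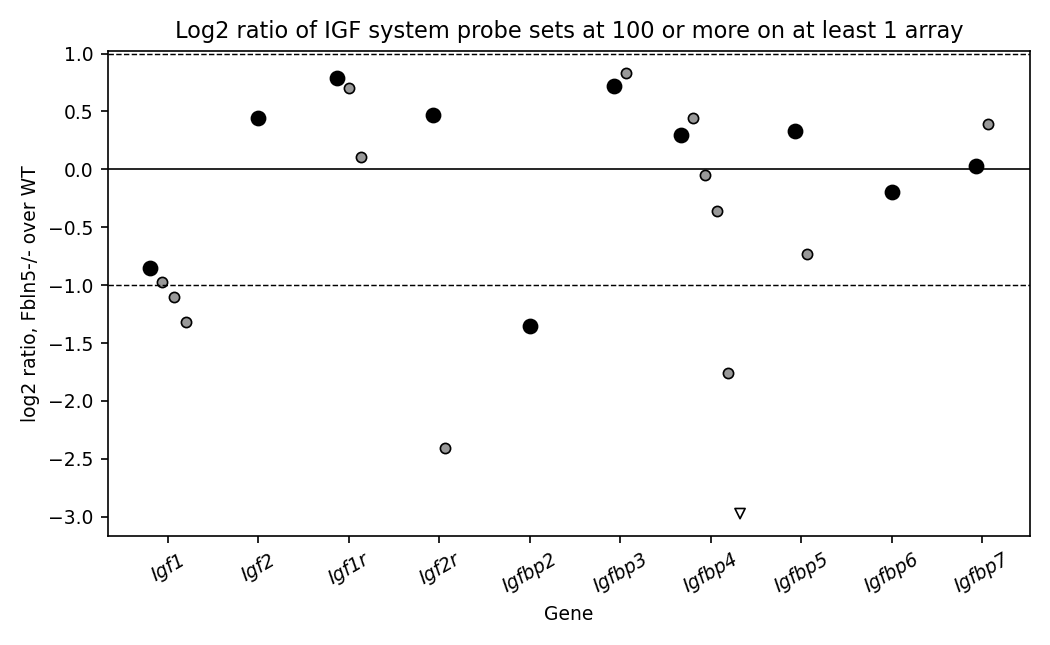
Log2 ratio of the *Fbln5-/-* to the WT signal for the 24 IGF system probe sets that reached 100 on 1 array or both, by gene. Large black points are the brightest probe set of a gene, gray points the others, the open triangle a bound for an *Igfbp4* probe set under 100 on the *Fbln5-/-* array, and dashed lines mark 2-fold. *Igf1* and *Igfbp2* lie below 0 at every probe set, and *Igf1r* and *Igfbp3* lie above 0 at every probe set.

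*Igfbp4*, a binding protein that restrains IGF action until pappalysins cleave it, gave values that depended on the probe set. The 4 brightest had log2 ratios of 0.30 (8269 and 10188), 0.45 (7300 and 9945), −0.04 (7341 and 7118) and −0.36 (4724 and 3688). At 1421992_a_at, however, the signal went from 2778 in WT to 820.3 in *Fbln5-/-*, 3.39-fold lower. At 1421991_a_at it was 785.0 and 54.1, at least 7.85-fold lower with 100 in place of the *Fbln5-/-* signal. The bright probe sets all differed by less than 1.5-fold and the dim pair was far lower. Over the 5 *Igfbp4* probe sets that reached 100 on both arrays, which leaves out 1421991_a_at, the gap was 2.21. Among the 468 genes with at least 4 such probe sets, 4.70% had a gap as wide. In 5 of the 7 members with several kept probe sets, the dimmest probe set had the lowest ratio, and in the other 2, *Igfbp3* and *Igfbp7*, it had the highest. Over all 4893 genes with several, these shares were 57.9% and 31.5%.

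The control probe sets for the 5′ end of *Gapdh* and *Actb* were also low on the *Fbln5-/-* array. At the 5′ end of *Gapdh* the signal went from 17262 in WT to 794.7 in *Fbln5-/-*, a log2 ratio of −4.44, while at the 3′ end the ratio was 0.05. For *Actb* the ratios were −1.87 at the 5′ end and −0.18 at the 3′ end. At the middle probe sets they were −1.16 for *Gapdh* and −1.22 for *Actb*. Probe positions within the member transcripts were not used here. The part of this gradient in the low probe sets of *Igf1*, *Igf2r*, *Igfbp2*, *Igfbp4* and *Igfbp5* was not tested. Nor was it tested for low probe sets of genes outside the members, such as *Ghr* and *Akt1* below.

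The remaining binding proteins differed little. *Igfbp6*, which prefers IGF2 over IGF1, had signals of 3441 and 3006 at its single probe set (log2 ratio −0.19). *Igfbp7*, a low-affinity relative that is abundant around blood vessels, had signals of 11266 and 11520 at its brightest probe set, a log2 ratio of 0.03 that turned negative, between −0.02 and −0.07, under each of the other 4 scalings. Its second probe set had signals of 211.2 and 276.7 (0.39), and the third was under 100 on both arrays (24.4 and 15.9).

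Promoter sequences are given for *Igf1* and *Igfbp2*, the members with the lowest ratios, and for *Igfbp3*, which was higher at both probe sets. They are the 250 bases before the transcription start in RefSeq (GRCm38.p6), at chr10:87860861-87861110 on the plus strand for *Igf1*, chr1:72824230-72824479 on the plus strand for the first of the 2 *Igfbp2* starts, and chr11:7213924-7214173 on the minus strand for *Igfbp3*. Capitals mark the estrogen response half-site GGTCA and the GC box GGGCGG, each searched on both strands, and no match of one overlaps a match of the other.
Igf1: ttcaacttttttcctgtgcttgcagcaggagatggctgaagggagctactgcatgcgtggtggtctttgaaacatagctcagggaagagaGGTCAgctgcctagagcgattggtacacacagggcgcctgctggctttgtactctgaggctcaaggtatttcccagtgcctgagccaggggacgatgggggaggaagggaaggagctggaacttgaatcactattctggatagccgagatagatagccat
Igfbp2: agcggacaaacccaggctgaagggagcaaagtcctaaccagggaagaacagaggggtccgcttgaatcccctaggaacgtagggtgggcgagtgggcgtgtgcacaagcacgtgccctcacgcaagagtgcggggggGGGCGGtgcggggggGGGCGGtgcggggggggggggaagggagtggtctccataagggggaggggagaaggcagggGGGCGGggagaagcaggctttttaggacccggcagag
Igfbp3: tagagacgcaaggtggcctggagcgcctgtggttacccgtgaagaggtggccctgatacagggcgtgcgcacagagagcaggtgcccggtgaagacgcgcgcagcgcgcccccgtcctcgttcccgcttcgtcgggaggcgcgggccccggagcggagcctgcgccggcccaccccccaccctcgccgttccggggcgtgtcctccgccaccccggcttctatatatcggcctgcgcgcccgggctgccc

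The *Igf1* window held 1 half-site, with its first base 160 bases before the start, and no GC box. The *Igfbp2* window held 3 GC boxes and no half-site, and the *Igfbp3* window held neither. The window before the second *Igfbp2* start held 1 half-site and no GC box, so what was found for *Igfbp2* depends on the start. Base composition differed as well, with 52.8% G and C in the *Igf1* window, 67.2% in that of *Igfbp2* and 73.2% in that of *Igfbp3*. Over the 14 start sites of the 10 members, 8 windows held a half-site and 6 a GC box, beside 35.2% and 32.7% of all 32851 promoter windows of this length. The full element GGTCANNNTGACC, which contains the half-site, was in none of the 14 and in 0.0639% of all. These matches describe the letters of the window, and binding of a factor was not measured.

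The rest of the pathway was described from 3 lists. In the first, which holds other extracellular and regulatory genes of the IGF axis, 10 of 18 genes were measured, and none was 2-fold higher or lower (median log2 ratio 0.09). The brightest were *Ctsd*, the lysosomal protease cathepsin D, at −0.15, and *Ide*, the insulin-degrading enzyme. *Ide* had log2 ratios of 0.89 and 0.90 at its bright probe sets (4367 and 8110, and 4198 and 7846), and between −0.66 and 0.27 at the others. *Ghr*, the growth hormone receptor that drives *Igf1* in liver, had log2 ratios of 0.23 (3567 and 4189) and 0.28 (929.5 and 1126) at its brighter probe sets and −1.16 (301.4 and 134.6) at the dimmest. *Pappa2*, a protease that cleaves binding proteins, had one of −0.44 and *Pappa* was under 100 on both arrays.

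Among 12 other genes whose proteins carry an IGFBP domain, 9 were measured. *Ccn2* (also called *Ctgf*), a matricellular protein of fibrosis and wound repair, had WT and *Fbln5-/-* signals of 429.3 and 2635, 6.14-fold higher at its single probe set. *Ccn3* (*Nov*) was higher at both probe sets, with signals of 304.1 and 831.1 (log2 ratio 1.45) and 250.1 and 738.8 (1.56). *Ccn4* (*Wisp1*) was at least 2.21-fold higher at its brighter probe set (72.3 and 220.6) and had a log2 ratio of −0.16 at the other (122.2 and 109.2). *Crim1* had signals of 48.7 and 104.8, so its increase is known only as at least 1.05-fold. *Ccn4* at that probe set and *Crim1* passed the filter through the *Fbln5-/-* array alone, so they could be measured as higher but not as lower. Of the 6 genes at 100 or more on both arrays, *Ccn2* and *Ccn3* passed 2-fold upward and no gene did so downward. Over all 10990 genes measured with 100 required on both arrays, 578 passed it upward and 395 downward. The median log2 ratio of the 9 was 0.07 with signals under 100 set to 100. *Ccn1* (*Cyr61*), the early response member of the same family, ran the other way, with log2 ratios of −0.58 (1823 and 1218) and −0.93 (1684 and 883.3) at its brighter probe sets.

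Of 31 genes that act downstream of the IGF1 receptor, 26 were measured, all at 100 or more on both arrays at their brightest probe set, with a median log2 ratio of 0.36. Of these, 2 were at least 2-fold higher and 1 was lower, shares near those of all measured genes (7.21% and 4.77%). The higher ones were *Foxo3*, a transcription factor that AKT keeps out of the nucleus, and *Pik3cb*, a catalytic subunit of PI3 kinase. *Foxo3* had signals of 697.4 and 2334 (log2 ratio 1.74) and, at its other probe set, 743.4 and 1453 (0.97). *Pik3cb* had signals of 236.7 and 570.3 at 1 probe set, 2.41-fold higher. *Akt1*, the kinase at the center of the pathway, was 2.42-fold lower at its brightest probe set (3522 and 1455). Its other probe sets differed, with signals of 2145 and 3.80 at 1, at least 21.4-fold lower, and 111.4 and 105.8 at the other. The part of the gradient between the 5′ and 3′ control probe sets in these *Akt1* values was not tested. *Irs1*, which couples the receptor to PI3 kinase, had a log2 ratio of 0.40.

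**Figure D4:**
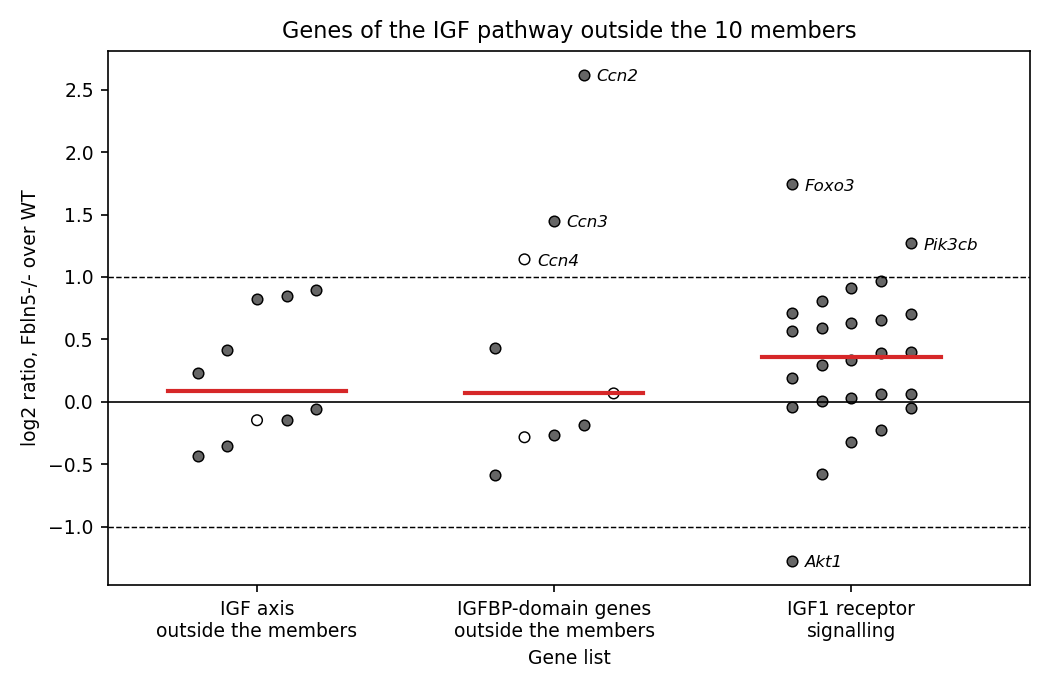
Log2 ratio of the *Fbln5-/-* to the WT signal at the brightest probe set of each measured gene in the 3 pathway lists, with signals under 100 set to 100. Filled points reached 100 on both arrays, open points are bounds, red bars show the median of each list and the dashed lines are at 2-fold. *Ccn2*, *Ccn3*, *Ccn4*, *Foxo3* and *Pik3cb* lie above the upper line and *Akt1* below the lower one.

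The targeted gene and the tissue were checked on the same arrays. *Fbln5* had WT and *Fbln5-/-* signals of 410.4 and 30.4, at least 4.10-fold lower, and whether its probes lie in the deleted part is not known. Markers of stratified epithelium were bright on both arrays (*Krt13* at 19999 and 21197, *Krt5* at 16102 and 16059), with none of 7 at a 2-fold difference. Among fibroblast markers, none of 7 was at a 2-fold difference. Their median log2 ratio was 0.40, their summed signal was 63308 in WT and 76985 in *Fbln5-/-*, and the brightest, *Col1a2* and *Col3a1*, had log2 ratios of 0.10 and 0.26. For smooth muscle the median was 0.03, with none of 8 at a 2-fold difference (summed signals 39943 and 42233). Of 8 macrophage markers, 3 were at least 2-fold higher, as were 7.21% of all measured genes, and none lower (summed signals 9880 and 12778), and the brightest, *Lyz2* and *Csf1r*, had log2 ratios of −0.19 and 0.56. Among 9 adipocyte markers, 4 were measured and 3 of these were higher, beside 7.21% of all measured genes (summed signals 2188 and 7395). *Lep*, *Pparg* and *Cidec* were under 100 on both arrays. Of the 4 measured adipocyte markers, only 2 reached 100 on both arrays. *Retn* (34.8 and 449.1) and *Lipe* (69.0 and 112.8) passed the filter through the *Fbln5-/-* array alone, so they could be measured as higher but not as lower. Endothelial markers had a median of 0.09, with 1 of 8 lower, beside 4.77% of all measured genes (summed signals 4993 and 4443). Of 8 skeletal muscle markers, 7 were measured and 3 were higher, beside 7.21% of all measured genes (summed signals 5239 and 8039). With signals under 100 set to 100, 2 were higher. *Ttn* (68.8 and 138.8) passed the filter through the *Fbln5-/-* array alone, so it too could be measured as higher but not as lower. Of 8 liver markers, 7 were under 100 on both arrays, *Alb*, *Ttr* and *Apoa1* among them, and *Cyp2e1* had signals of 86.9 and 667.0. *Cyp2e1* likewise passed the filter through the *Fbln5-/-* array alone. The part of the adipocyte, macrophage and skeletal muscle signals in the values of *Igf1r*, *Igfbp3*, *Ccn2* and *Ccn3* was not tested. The part of cell composition in the values of *Igf1* and *Igfbp2* was not tested either.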

How the data were processed

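RNA from WT and *Fbln5-/-* vagina was labeled from 6 µg and hybridized to Affymetrix mouse expression arrays. The authors deposited signal intensities made with MAS5 (per the submitters' processing notes), on a linear scale with a mean of 500.0 on both arrays after trimming 2% at each end. Scaling by the authors removes differences in overall brightness between arrays. Here 1 signal of 0 was set to 0.1 and both arrays were brought to a common median (factors 0.973 and 1.03), after the 50th percentile normalization of the methods. Detection calls were not used. Of the deposited intensities, 54.8% and 55.9% were under 100, which limits what can be seen.

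The platform annotation listed 34958 probe sets with 1 gene symbol, 932 with several, and did not list 9211; gene IDs of 34754 matched GRCm38.p6, used for names and gene order. Control probe sets (64) were left out. No test was possible with 1 array per genotype. Precision is limited by the number of arrays. Members, lists and alternatives were chosen with earlier results of these data known. The rule for named genes took all members with all probe sets, *Fbln5*, list genes at least 2-fold different (up to 8 per list, otherwise the 2 brightest), 2 bright genes per marker list and genes whose values touch a result; not every marker it takes is printed, and further genes were named after their values were seen. Alternatives were other scalings, filters, floors, thresholds and choices of probe set. The steps were checked on simulated arrays in which all probe sets of a gene shifted equally. Those arrays had less spread between probe sets than the real ones and no gradient between 5′ and 3′ ends. The check thus covers the computation and not how reliable the calls are here. Promoters were from RefSeq, and all 10 members matched. Computations used numpy 2.4.6, scipy 1.17.1 and pandas 2.3.3 under Python 3.11.15, with figures drawn in matplotlib 3.10.9.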

Additional observations from a re-analysis of the deposited data

How the results depend on the processing

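No paired analysis was possible because each genotype has 1 array. *Igfbp2* was the member at least 2-fold lower, and no member was 2-fold higher, under all 4 other scalings. The 3 other filters and the floor of 100 could not change these calls, because the brightest probe set of each member exceeded their limits on both arrays. Adding 32 to each signal gave the same calls and moved the *Igfbp2* ratio little, from −1.36 to −1.35, as 32 is small beside the signals. The choice of probe set changed the count. With the mean over all kept probe sets of a gene, 2 members were lower, *Igf1* (−1.06) and *Igfbp2*, and none was higher. Over all 11934 genes this choice gave 835 lower and 779 higher, beside 569 and 861 at the brightest probe set. The ratios of *Igf2r*, *Igfbp4* and *Igfbp5* went from above 0 to −0.97, −0.88 and −0.20 with the mean. Without probe sets whose names end in _x_at, _s_at or _a_at, 7 members could be measured and 0 were 2-fold lower (521 of all 10187 genes were). The *Igfbp2* probe set is among those left out. At 1.5-fold, 2 members were higher and 2 lower (2392 and 1238 of all 11934 genes were), with 4 probe sets higher and 9 lower. At 3-fold, 0 members were lower (211 of all 11934 genes were) and 3 probe sets were. The shares of all kept probe sets at these thresholds were not counted. *Igf1* stayed between −1.06 and −0.85, *Igf1r* between 0.53 and 0.79 and *Igfbp3* between 0.62 and 0.78 under the 11 settings tried for each gene. Of 107 values of single members, 104 moved by less than the pooled SD of 0.52 between probe sets of a gene. Many of these could not move, since the other filters and the floor do not touch the members' brightest probe sets. The 3 that moved, for *Igf2r*, *Igfbp4* and *Igfbp5*, all came with the mean over probe sets. Signals under 100 on both arrays give no ratio, which applied to 4 of the 28 probe sets.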

Other observations

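Of the 468 genes with at least 4 probe sets that reached 100 on both arrays, 6 had a mean log2 ratio as low as that of *Igf1* (−1.06) or lower. Besides *Igf1* these were *Bet1l*, a vesicle transport protein, at −1.40, *Timp3*, a matrix-bound inhibitor of metalloproteases, at −1.38, *Urm1* at −1.28, *Srxn1*, which repairs oxidized peroxiredoxins, at −1.22, and *Gpt2*, a mitochondrial alanine aminotransferase, at −1.13. The 4 *Timp3* probe sets ranged from −1.97 to −0.69 and the 4 *Bet1l* probe sets from −1.63 to −1.23. These genes were picked out by their values and were not tested.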
